A study of Mus musculus with 12 samples.

Results

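The urea cycle genes described here are Cps1, Otc, Ass1, Asl, Arg1, Nags, Slc25a15, and Slc25a13. They were chosen by symbol, and all 8 were present among the 24421 genes counted in each library. Poly(A) RNA had been sequenced from 6 liver tumors and from 6 non-tumoral livers, and the series asks how Tert or TertCi made from the p21 promoter affects transcription in liver tumors. The mice had a C57BL/6 background, were kept on a standard diet and were killed at more than 18 months of age. All 12 libraries came from mice carrying an allele driven by the Cdkn1a (p21) promoter, so the livers used as the reference carried it too. In p21+/Tert mice the allele makes the telomerase catalytic subunit Tert, and in p21+/TertCi mice it makes a catalytically inactive Tert.

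The p21+/Tert group held 4 tumors and 4 livers, and the p21+/TertCi group held 2 tumors and 2 livers. Each tumor was a single tumor from a single mouse. T-HCC662 and T-HCC663 carry Ctnnb1 mutations and are called the Ctnnb1 tumors below. Of the other 4 tumors, T-HCC941 carries an Egfr mutation and TCi-HCC981 an Hras mutation, and the adenomas T-HCA992 and TCi-HCA984 carry none of these. Liver values are given within each genotype in ascending order of the number in the tumor's name, so that the TCi-HCA984 mouse comes last of the p21+/TertCi livers. Both Ctnnb1 tumors were p21+/Tert, so the driver class and the genotype are partly tied. Mice are named here by their tumor. The liver whose label carries a number shared with no tumor was taken as that of the T-HCC662 mouse, the only mouse without a liver under its own number.

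The urea cycle turns ammonia, which is toxic, into urea that can be excreted, and the liver is the organ known for running the whole cycle. It starts in the mitochondrion, where Nags makes N-acetylglutamate, the obligate activator of Cps1. Cps1 makes carbamoyl phosphate, and Otc joins it to ornithine to give citrulline. In the cytosol Ass1 and Asl turn citrulline into arginine, and Arg1 splits arginine into urea and ornithine. Slc25a15 carries ornithine into the mitochondrion in exchange for citrulline, and Slc25a13 (citrin) exports the aspartate that Ass1 uses. In the liver lobule these enzymes are known as periportal, whereas the glutamine synthetase Glul, which takes up ammonia that escaped the cycle, marks the hepatocytes around the central vein, where β-catenin signaling is known to be active.

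Library totals ranged from 14571716 to 26170661 counts, so every member was well covered. The lowest counts were 564 for Arg1 and 576 for Ass1. Values below are CPM (each gene's count relative to the library total) scaled by edgeR's TMM factors unless another scale is named. Albumin and 10 other hepatocyte markers were detected in every library. Their summed level was 62674 to 100535 CPM in livers, 29607 in T-HCC663, 52451 in T-HCC662, and 122520 to 131161 in the other 4 tumors. In bulk tissue, fewer cells of a type and less RNA per cell cannot be told apart, and the part of the marker levels in the results below was not tested.

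The genes lie on 8 chromosomes (GRCm38). Cps1 spans chr1:67123026-67231259 and Otc chrX:10252305-10321024, both on the plus strand. Ass1 (chr2:31470207-31520672) and Nags (chr11:102145513-102149477) are also on the plus strand. Asl (chr5:130011258-130029247), Arg1 (chr10:24915221-24927484), Slc25a15 (chr8:22375551-22398597) and Slc25a13 (chr6:6041218-6217173) are on the minus strand. Promoter entries from RefSeq (GRCm38.p6) were matched for 5 of the 8 members, namely Otc, Ass1, Nags, Slc25a15, and Slc25a13. Stretches around the start of Ass1 and before that of Otc are printed. Both genes lie on the plus strand, were lower in every tumor than in every liver, and differ in base composition. Slc25a15 was also lower in every tumor than in every liver, but it is on the minus strand and is not printed. The Ass1 stretch is chr2:31470020-31470236 on the plus strand, with the GC box letters GGGCGG in capitals, and the Otc stretch is chrX:10252055-10252304 on the plus strand.
Ass1: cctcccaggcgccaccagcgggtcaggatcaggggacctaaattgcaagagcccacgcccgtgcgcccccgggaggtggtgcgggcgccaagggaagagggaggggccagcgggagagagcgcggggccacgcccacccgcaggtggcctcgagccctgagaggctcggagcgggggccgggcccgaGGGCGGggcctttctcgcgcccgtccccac
Otc: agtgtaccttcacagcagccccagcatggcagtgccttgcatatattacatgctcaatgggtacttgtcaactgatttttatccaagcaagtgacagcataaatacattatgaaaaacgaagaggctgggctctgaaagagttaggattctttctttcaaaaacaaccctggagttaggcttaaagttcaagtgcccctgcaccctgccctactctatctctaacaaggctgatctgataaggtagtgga
The Ass1 stretch had 76.04% GC and the Otc stretch 43.6%, against a median of 52.67% over all 32851 promoters of 300 bases. Searched on both strands were the TATA box TATAAA (in 13.616% of all promoters), the HNF4 site CAAAGTCCA (0.475%), the receptor element AGGTCA (16.255%), the C/EBP site TTGCNNAA (10.797%), the cAMP element TGACGT (7.513%), the GC box (35.658%), and CCAAT (37.408%). The Ass1 stretch lies before the RefSeq start but runs 30 bases into the GENCODE gene model, and its GC box letters begin at the first base of that model. For Otc, no searched motif was matched in the window. In the entries of the members not printed, Nags matched AGGTCA and the GC box, Slc25a15 the GC box, and Slc25a13 CCAAT. These are matches of letters and not sites.

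Ass1, which joins citrulline and aspartate and is often taken as the rate-limiting enzyme for arginine made from citrulline, had the largest fall in tumors among the members. In p21+/Tert livers Ass1 was at 569, 691, 445, and 495 CPM, and in p21+/TertCi livers at 344 and 89.4. In the Ctnnb1 tumors T-HCC662 and T-HCC663 it was at 75.6 and 62.8, in the p21+/Tert tumors T-HCC941 and T-HCA992 at 60.6 and 76.9, and in the p21+/TertCi tumors TCi-HCC981 and TCi-HCA984 at 29.6 and 67.7. All 6 tumors lay below all 6 livers, though the lowest liver, that of the TCi-HCA984 mouse, was close to the tumors. The difference between tumors and livers was -2.82 log2 units (SE 0.41, adjusted p = 0.00158). The Ass1 counts cannot be separated from those of Gm5424, a processed pseudogene at chr10:62071123-62072362 that matches the Ass1 transcript at 99.52% of 1240 aligned bases. The counts of Ass1 and Gm5424 differed by at most 4 reads in every library and were equal in 5. A random split of shared reads between them would give differences with an SD of 33.9 to 146 reads. Whether each shared read was counted in full or in part for both genes is not given.

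Otc, the mitochondrial enzyme that makes citrulline, was also lower in every tumor than in every liver. Liver values were 425, 443, 239, and 347 CPM in p21+/Tert mice and 301 and 143 in p21+/TertCi mice. Tumor values were 84.4 and 78.3 in the Ctnnb1 tumors T-HCC662 and T-HCC663, 86.4 in T-HCC941, 55.2 in T-HCA992, 56.4 in TCi-HCC981, and 127 in TCi-HCA984. Otc fell by 1.96 log2 units in tumors (SE 0.29, adjusted p = 0.00192), or 3.90-fold. The tumors of both classes overlapped each other.

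Asl, which splits argininosuccinate into arginine and fumarate, followed the same order. In livers it was at 808, 868, 559, and 631 CPM (p21+/Tert) and at 594 and 262 (p21+/TertCi). Tumor values were 268 and 143 in T-HCC662 and T-HCC663, 184 and 152 in T-HCC941 and T-HCA992, and 115 and 179 in TCi-HCC981 and TCi-HCA984. The groups overlapped only at the liver of the TCi-HCA984 mouse, which was below T-HCC662. Asl changed by -1.84 log2 units (SE 0.29, adjusted p = 0.00238).

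Slc25a15, the ornithine carrier, was at 363, 380, 565, and 415 CPM in p21+/Tert livers and at 326 and 349 in p21+/TertCi livers. The Ctnnb1 tumors were at 194 and 275, T-HCC941 at 114, T-HCA992 at 128, TCi-HCC981 at 114, and TCi-HCA984 at 211. No tumor reached the lowest liver. The gene fell by 1.22 log2 units (SE 0.25, adjusted p = 0.00971), or 2.33-fold.

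Thus 4 of the 8 members were called lower in tumors than in livers and none higher. Of all 13822 genes tested in that comparison, 3.91% were called lower and 6.77% higher. Of the 8 genes, 3 (Otc, Ass1, Slc25a15) had every tumor below every liver, against 2.18% of all genes tested. The median change over the 8 members was -1.33 log2 units, against 0.01 over all genes. All 4 calls held in each of the 12 fits that left out 1 library.

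The remaining 4 members did not pass in the comparison over all tumors, and for Cps1 and Arg1 the tumors fell into separate levels. Cps1, the entry enzyme of the cycle, was at 2067, 2954, 1945, and 2539 CPM in p21+/Tert livers and at 1901 and 721 in p21+/TertCi livers. It was at 125 in T-HCC662 and 117 in T-HCC663, at 888 and 849 in the p21+/Tert tumors T-HCC941 and T-HCA992, and at 1337 and 1137 in the p21+/TertCi tumors TCi-HCC981 and TCi-HCA984. Every Ctnnb1 tumor lay far below every other library, and the other tumors lay between the liver of the TCi-HCA984 mouse and the remaining livers. Over all tumors the change was -1.44 log2 units (SE 0.58, adjusted p = 0.133).

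Arg1, which releases urea, was the most divided member. It was at 1656, 2111, 1217, and 1255 CPM in p21+/Tert livers and at 1335 and 1364 in p21+/TertCi livers. It was at 25.4 in T-HCC662 and 52.6 in T-HCC663, but at 756 in T-HCC941, 758 in T-HCA992, 1121 in TCi-HCC981, and 1601 in TCi-HCA984. Of the latter tumors, 3 lay below the lowest liver, and TCi-HCA984 was above 4 of the 6 livers. Over all tumors the change was -1.05 log2 units (SE 0.73, adjusted p = 0.397).

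Nags was nearly level across the livers, at 118, 122, 90.2, and 132 CPM in p21+/Tert mice and 102 and 123 in p21+/TertCi mice. It was at 130 and 96.9 in the Ctnnb1 tumors, at 77.8 in T-HCC941, 78.7 in T-HCA992, 60.0 in TCi-HCC981, and 71.7 in TCi-HCA984. The Ctnnb1 tumors lay within the range of the livers and the other tumors below it. Slc25a13 was at 185, 177, 141, and 215 CPM in p21+/Tert livers and at 120 and 186 in p21+/TertCi livers. It was at 164 and 83.5 in the Ctnnb1 tumors, 63.0 and 89.1 in the other p21+/Tert tumors, and 56.0 and 139 in the p21+/TertCi tumors. Over all tumors Nags changed by -0.43 log2 units (adjusted p = 0.155) and Slc25a13 by -0.79 (adjusted p = 0.0745). With each tumor compared within its own mouse, Slc25a13 passed, at -0.88 (adjusted p = 0.0179). Without T-HCC662, both Slc25a13 (adjusted p = 0.0206) and Nags (adjusted p = 0.0276) passed, and Slc25a13 also passed without TCi-HCA984. Nags shares 443 exon bases with Gm11586 on the opposite strand, which was not analysed here.

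**Figure D1:**
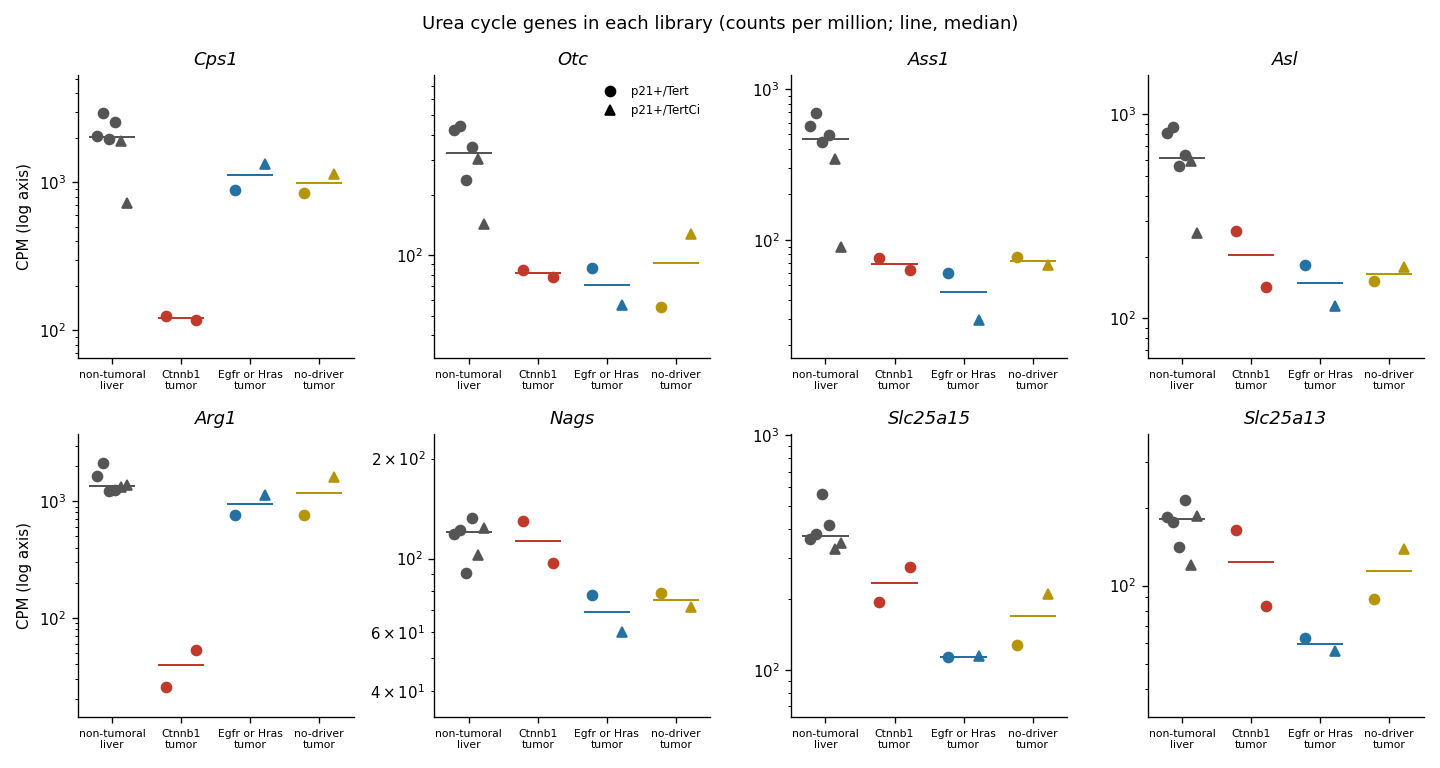
CPM on a log axis for the 8 urea cycle genes in each of the 12 libraries. The groups are livers, Ctnnb1 tumors, Egfr or Hras tumors, and tumors with none of these mutations (no-driver). Circles are p21+/Tert, triangles p21+/TertCi, and the line is the group median. Arg1 is at 25.4 and 52.6 in the Ctnnb1 tumors and at 756 or more in every other library.

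The comparison of the driver classes with the livers asked which members differed in each. In the 2 Ctnnb1 tumors 5 of the 8 members fell relative to the 6 livers, where 3.2% of the 15182 genes tested were called lower. Arg1 fell by 5.28 log2 units (95% interval -6.46 to -4.10, adjusted p = 0.000269), or 38.9-fold, from 1490 ± 342 CPM in livers (SD, n = 6) to 39.0 ± 19.2 (SD, n = 2). Cps1 fell by 4.08 (95% interval -5.30 to -2.86, adjusted p = 0.00151), or 16.9-fold, from 2021 ± 755 to 121 ± 5.93 CPM. These are the last and the first enzyme of the cycle proper. Ass1 changed by -2.68 (SE 0.64, adjusted p = 0.0261), Otc by -1.98 (SE 0.47, adjusted p = 0.0247), and Asl by -1.61 (SE 0.44, adjusted p = 0.0463). The activator enzyme and the carriers did not pass: Slc25a15 had a change of -0.79 (adjusted p = 0.121), Slc25a13 of -0.49 (adjusted p = 0.365), and Nags of -0.04 (95% interval -0.48 to 0.39, adjusted p = 0.924). Both Ctnnb1 tumors lay below all livers for 5 members (Cps1, Otc, Ass1, Arg1, Slc25a15), against 12.0% of all genes. In these tumors the summed hepatocyte markers were also below those of every liver, as given above.

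The 5 calls rest on 2 tumors. Without T-HCC662, or without T-HCC663, 2 calls were left, and Arg1 and Cps1 were both times the genes called. The Asl call was kept in 1 of the 8 fits that left out a library of these groups, with an adjusted p of up to 0.319 (without T-HCC663). With each tumor compared within its own mouse, Otc had a change of -2.43 (adjusted p = 0.0518), and with the T-HCC662 mouse also left out no member passed, with Arg1 at -5.34 (adjusted p = 0.0616) and Cps1 at -4.67 (adjusted p = 0.117).

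In the other 4 tumors 6 of the 8 members fell relative to livers, where 11.5% of all genes were called lower. The carriers were among them, with Slc25a15 at -1.54 log2 units (SE 0.23, adjusted p = 0.00110), or 2.90-fold lower, and Slc25a13 at -1.07 (SE 0.24, adjusted p = 0.00918), or 2.09-fold lower. Ass1 changed by -2.95 (SE 0.48, adjusted p = 0.00171), Asl by -1.99 (SE 0.34, adjusted p = 0.00224), and Otc by -1.98 (SE 0.35, adjusted p = 0.00261). Nags, the activator enzyme, fell by 0.69 (SE 0.16, adjusted p = 0.0109), from 115 ± 15.5 to 72.0 ± 8.59 CPM (SD, n = 6 and 4). All 4 tumors lay below all livers for Otc, Ass1, Asl, Nags, and Slc25a15, against 7.36% of all genes. Cps1 had a change of -0.95 (adjusted p = 0.0695) and Arg1 of -0.51 (95% interval -1.19 to 0.16, adjusted p = 0.255). Without the liver of the TCi-HCA984 mouse, Cps1 passed (adjusted p = 0.00918). Slc25a13 no longer passed without T-HCA992 (adjusted p = 0.0522), nor Nags without TCi-HCC981 (adjusted p = 0.0534).

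The difference between the classes was tested directly. Arg1 was lower in the Ctnnb1 tumors than in the other tumors by 4.77 log2 units, a change of -4.77 (95% interval -5.93 to -3.60, adjusted p = 0.000454), or 27.2-fold. Cps1 was lower at -3.13 (95% interval -4.30 to -1.95, adjusted p = 0.00562), or 8.74-fold, and its adjusted p was 0.0555 without T-HCC662. These were 2 of 8 members, where 5.72% of all genes were called lower, and for both genes the tumor classes did not overlap, as was the case for 19.0% of all genes in that direction. With each tumor compared within its own mouse and the T-HCC662 mouse left out, neither passed, with Arg1 at -4.96 (adjusted p = 0.0570) and Cps1 at -4.01 (adjusted p = 0.161). The other 6 members were not called. Otc differed by 0.00 (95% interval -0.95 to 0.95), Ass1 by 0.27 (-0.97 to 1.51), and Asl by 0.38 (-0.54 to 1.29), all with wide intervals. Nags was at 0.65 (95% interval 0.19 to 1.10, adjusted p = 0.0610), Slc25a15 at 0.74 (adjusted p = 0.108), and Slc25a13 at 0.58 (adjusted p = 0.229).

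**Figure D2:**
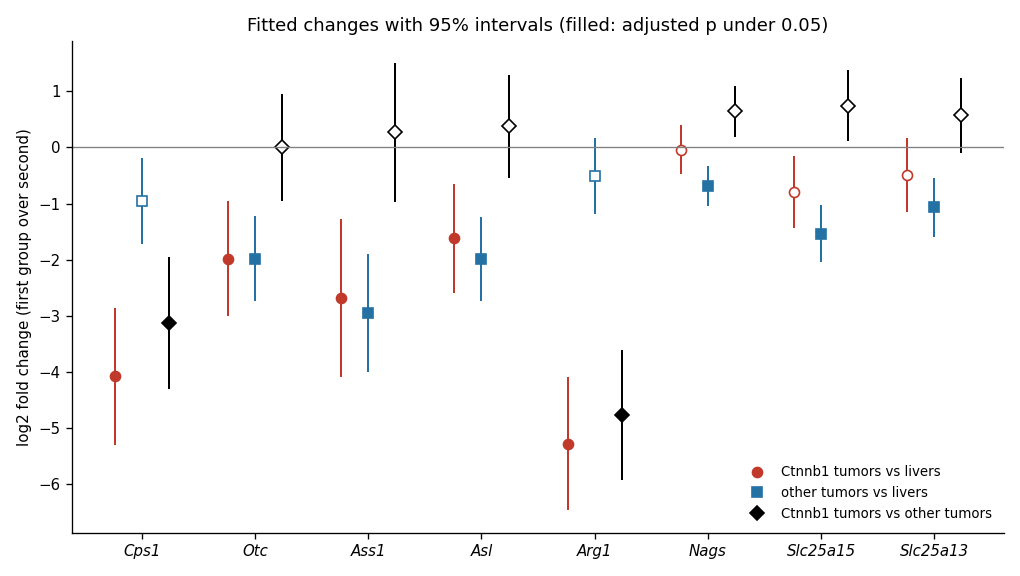
Log2 fold change with its 95% interval for each member, for Ctnnb1 tumors against livers (red circles), other tumors against livers (blue squares), and Ctnnb1 against other tumors (black diamonds), with filled symbols where the adjusted p was under 0.05. Arg1, at -4.77, and Cps1, at -3.13, are the members with filled diamonds.

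The 4 tumors without a Ctnnb1 mutation were also compared among themselves. Between the tumors with an Egfr or Hras mutation and the adenomas, edgeR called 0 genes, although 1331 (8.77%) had an unadjusted p under 0.05 and DESeq2 called 105. Among the members Slc25a13 alone had an unadjusted p under 0.05, with a difference of -0.97 (95% interval -1.76 to -0.17, adjusted p = 0.535).

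Each tumor was then set against the liver of its own mouse. Otc, Ass1, Asl, Slc25a15, and Slc25a13 were lower in the tumor in 6 of 6 mice. The log2 ratio ranged from -3.54 to -0.40 for Ass1, from -2.65 to -0.17 for Otc, and from -2.60 to -0.55 for Asl. For the carriers it ranged from -2.31 to -0.47 (Slc25a15) and from -1.27 to -0.17 (Slc25a13). The TCi-HCA984 mouse had the smallest drop for Ass1, Otc, and Asl. Cps1 was lower in 5 of 6 mice (-4.66 to 0.66) and Arg1 in 5 of 6 (-6.03 to 0.23), and both were higher in the tumor of the TCi-HCA984 mouse. Nags was lower in 5 of 6 mice (-0.78 to 0.13), with the T-HCC662 mouse the exception.

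**Figure D3:**
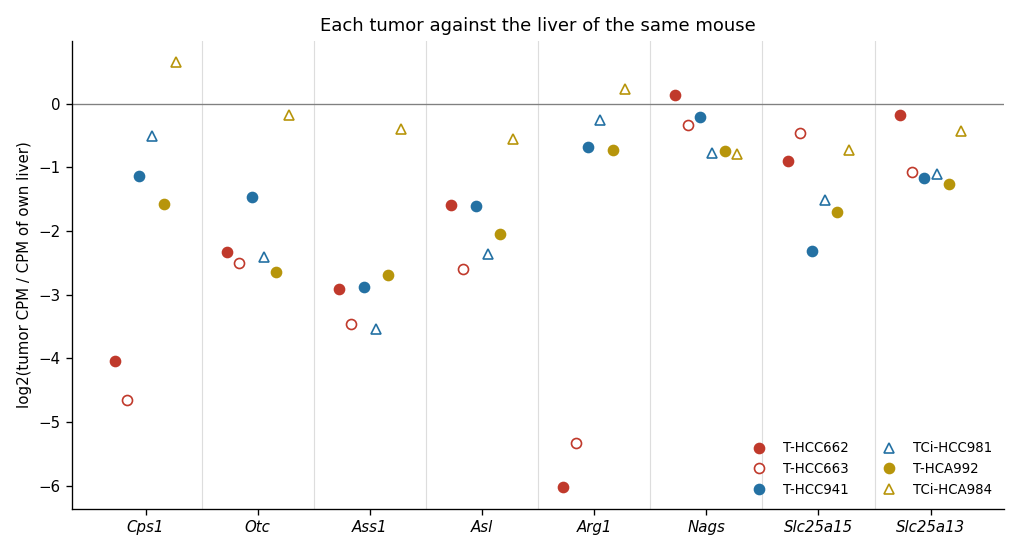
Log2 ratio of the tumor to the liver of the same mouse in CPM, for each member and each of the 6 mice. The Arg1 ratios reach -6.03, and 5 members lie below 0 in every mouse.

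Genotype was compared next, to ask whether active and inactive Tert went with different levels. Within p21+/Tert mice 4 members fell in tumors, where 2.3% of all genes were called lower. Ass1 changed by -3.01 (SE 0.41, adjusted p = 0.00425), or 8.06-fold, Otc by -2.27 (SE 0.34, adjusted p = 0.00611), and Asl by -1.96 (SE 0.33, adjusted p = 0.00865). Slc25a15 was at -1.30 (SE 0.33, adjusted p = 0.0390), and its call was kept in 1 of the 8 fits that left out a library of these groups, that without T-HCC663, with an adjusted p of up to 0.107 in the others. It was also lost with each tumor compared within its own mouse (-1.36, adjusted p = 0.0539). Cps1 had a change of -2.28 (adjusted p = 0.0683) and Arg1 of -1.99 (adjusted p = 0.205), and this group pools both Ctnnb1 tumors with 2 others.

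Within p21+/TertCi mice, with 2 tumors and 2 livers, edgeR called 0 of the 15182 genes (0.0%), although 1618 (10.7%) had an unadjusted p under 0.05. DESeq2 called 375. Of the members, 5 had an unadjusted p under 0.05 by edgeR, and DESeq2 called Ass1 (-2.15, adjusted p = 0.00855) and Asl (-1.54, adjusted p = 0.0314). By edgeR, Ass1 had a change of -2.16 (95% interval -3.40 to -0.92, adjusted p = 0.249), Cps1 of -0.10 (-2.09 to 1.90), and Arg1 of -0.00 (-2.63 to 2.62).

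The difference of the tumor change between the genotypes was called for 0 genes by edgeR, with 556 (3.66%) at an unadjusted p under 0.05 and 10 called by DESeq2. For Cps1 it was -2.18 (95% interval -4.67 to 0.30) and for Arg1 -1.99 (-5.24 to 1.27), with an adjusted p of 0.999942 for every member. The intervals are wide, and equal changes in both genotypes are not shown by them. Since both Ctnnb1 tumors were p21+/Tert, the 4 tumors without such a mutation were also compared by genotype. There, 1 gene of all tested (0.00659%) passed and it was no member, and 1217 (8.02%) had an unadjusted p under 0.05 (DESeq2 called 161). Arg1 was at -0.87 in p21+/Tert against p21+/TertCi tumors (95% interval -1.80 to 0.07, adjusted p = 0.645) and Cps1 at -0.53.

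Between the livers of both genotypes edgeR called 0 genes, with 756 (4.98%) at an unadjusted p under 0.05 and 42 called by DESeq2. Ass1 was the member with an unadjusted p under 0.05, at 1.33 higher in p21+/Tert livers (95% interval 0.23 to 2.43, adjusted p = 0.930). Cps1 was at 0.85 (-0.95 to 2.64) and Arg1 at 0.19. One of the 2 p21+/TertCi livers stood low, as described next.

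The liver of the TCi-HCA984 mouse was below the other 5 livers for Cps1, Otc, Ass1, and Asl, as it was for 21.3% of all genes. It held 34.9% of the median of the other 5 livers for Cps1, 41.4% for Otc, 18.1% for Ass1, and 41.6% for Asl. For 3 of these, Cps1, Ass1, and Asl, it was under 50% of the lowest other liver, against 3.63% of all genes. The other members were level in it, with Arg1 at 102%, Nags at 104%, Slc25a15 at 91.6%, and Slc25a13 at 105% of that median. Its summed hepatocyte markers, at 100535 CPM, were the highest of the livers, but the markers were divided. Fga was at 503% of the median of the other livers, Fgb at 355%, and Ahsg at 195%, whereas 6 of the 11 markers were below that median, among them Alb at 88.8% and Apoa2 at 52.3%. Their part in the low values was not tested. With both libraries of the TCi-HCA984 mouse left out, the members called were 6 in the other tumors against livers and 5 in the Ctnnb1 tumors. Cps1 then passed in the other tumors (adjusted p = 0.0171), and Nags did not (adjusted p = 0.0609).

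Levels were compared between the genes per exon length, as RPKM, which divides the CPM by the kilobases covered by all annotated exons of the gene. In livers Arg1 was highest at 669 ± 153 RPKM, followed by Cps1 at 364 ± 136, Ass1 at 182 ± 85.8, and Asl at 128 ± 44.3 (SD, n = 6). The Ass1 RPKM divides by 2414 exon bases, but Ass1 counts were within 4 reads of those of Gm5424, whose exon covers 1240. The Ass1 level per length, and so its rank among the members, is therefore uncertain. Otc at 74.6 ± 26.8 and Slc25a15 at 71.0 ± 15.3 did not differ beyond their spread, nor did Slc25a13 at 44.9 ± 8.98 and Nags at 40.5 ± 5.45. The transcripts of the enzymes thus spanned a wide range, with the activator enzyme and the carriers at its lower end. Arg1 was first and Cps1 second in every liver and in each of the 4 tumors without a Ctnnb1 mutation. In T-HCC662 Arg1 was last of the 8 and Cps1 was rank 6, and in T-HCC663 they were at ranks 5 and 7. In the Ctnnb1 tumors the mean was 42.5 RPKM for Asl, 41.7 for Slc25a15, 39.9 for Nags, 21.8 for Cps1, and 17.5 for Arg1.

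The summed RPKM of the 8 genes was 1574 ± 400 in livers (1022 to 2207), 643 to 1118 in the other tumors, and 224 and 264 in the Ctnnb1 tumors. The limit given above for Ass1 holds for its part of the sum. Arg1 made up 34.9% to 59.9% of that sum in livers and 52.4% to 64.3% in the other tumors. In the Ctnnb1 tumors it made up 4.32% and 10.5%. The Arg1 share in both lay below that of every other library.

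**Figure D4:**
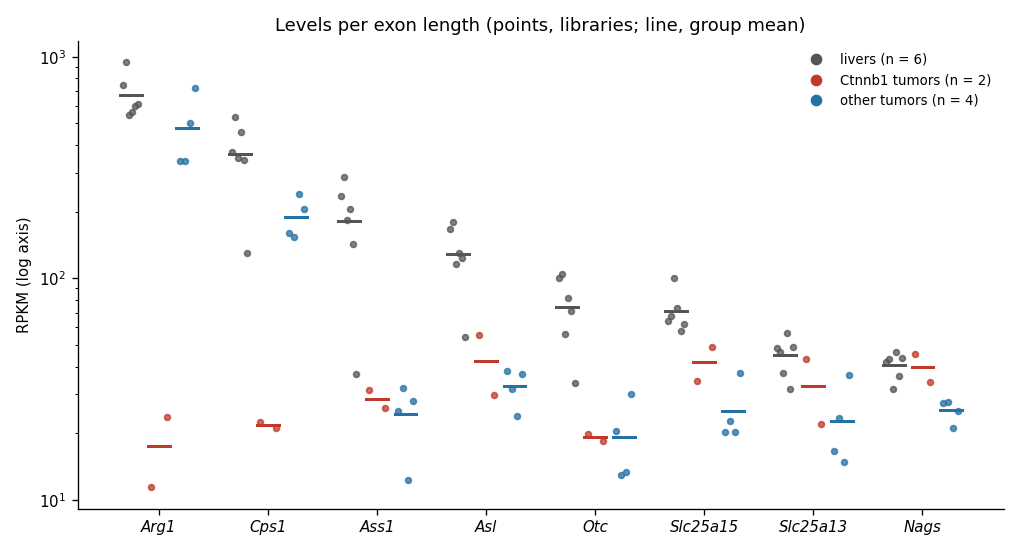
RPKM on a log axis for the 8 members in livers, Ctnnb1 tumors, and other tumors, with points for libraries and a line at the mean. Arg1 goes from the highest liver mean, 669, to the lowest Ctnnb1 tumor mean, 17.5.

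The genes whose levels ran most like each member were found by the root mean square difference of log2(CPM + 1), each gene centred, over 12 libraries and 13382 genes. Otc and Asl were each other's nearest gene, at 0.288 log2 units. Cps1 and Arg1 were 0.767 apart, and the nearest gene to Cps1 was Cryl1 (0.392) and to Arg1 Sfxn1, a mitochondrial serine transporter (0.406). Sfxn1 was at 2.25 and 3.86 CPM in the Ctnnb1 tumors and at 74.5 to 236 in the other libraries. Cryl1 was at 1.17 and 1.97 CPM there and at 9.64 to 37.8 elsewhere. After Arg1's nearest gene came Gls2 (0.689), which releases ammonia from glutamine in periportal hepatocytes. Nags was nearest to Wdr18, Slc25a15 to Bag4, and Slc25a13 to Aldh5a1. All points share library depth and normalization, and the farthest pair of members was Arg1 and Nags, at 2.03.

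Genes around the cycle were read from lists. Of 18 genes of nitrogen supply and ammonia handling tested, 2 were higher and 1 lower in the Ctnnb1 tumors than in livers, where 5.0% of all genes were called higher and 3.2% lower. The list's median was -0.20 log2 units, against -0.03 over all genes, and 0.13 with library totals in place of TMM factors. In the other tumors 1 was higher and 9 were lower, where 11.3% of all genes were called higher and 11.5% lower. The median there was -0.82, and 5 were lower with each tumor compared within its own mouse and 6 with library totals. Directly between the classes 5 were higher and 2 lower in the Ctnnb1 tumors, where 6.76% of all genes were called higher and 5.72% lower, and 11 were not called. Glul, which fixes ammonia in glutamine, was at 9494 and 10316 CPM in the Ctnnb1 tumors, 1092 to 1830 in livers, and 140 to 439 in the other tumors. It rose by 2.92 log2 units in the former (adjusted p = 0.000837) and fell by 2.65 in the latter (adjusted p = 0.000494). The groups did not overlap. Rhbg, an ammonia transporter, was at 322 and 276 CPM in the Ctnnb1 tumors, 7.80 to 17.5 in livers, and 2.65 to 3.41 in the other tumors. Gls2 went the other way, at 9.51 and 5.87 CPM in the Ctnnb1 tumors against 147 to 950 in livers and 141 to 313 in the other tumors. Car5a, the mitochondrial carbonic anhydrase that supplies bicarbonate to Cps1, fell by 2.46 log2 units in the other tumors.

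Among 24 genes of arginine, ornithine, and proline use, 1 was higher and 1 lower in the Ctnnb1 tumors (median 0.06), close to the 5.0% and 3.2% of all genes. In the other tumors 3 were higher and 4 lower (median -0.14), also close to the 11.3% and 11.5% of all genes. Oat, the aminotransferase that removes ornithine, was at 7784 and 3944 CPM in the Ctnnb1 tumors, 650 to 2204 in livers, and 36.2 to 183 in the other tumors. It rose by 1.94 in the former (adjusted p = 0.0399) and fell by 4.31 in the latter (adjusted p = 0.000388). Aldh18a1, which makes a precursor of proline and ornithine from glutamate, rose by 2.57 in the other tumors, and Agmat fell by 1.89 there. Arg2, the mitochondrial arginase, was at 3.51 CPM or less in every library. Odc1, which makes putrescine from ornithine, differed by 0.04 between tumors and livers (adjusted p = 0.935), and Slc25a12, the aspartate carrier of other tissues, by 0.00 (adjusted p = 0.997).

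Of 8 genes of pyrimidine synthesis, which draws on carbamoyl phosphate and aspartate, edgeR called none in the Ctnnb1 tumors against livers (median -0.09), nor did DESeq2. In the other tumors 1 was higher (Ctps, 1.29) and 2 were lower (Uck1, -1.29, and Dhodh, -0.78), where 11.3% of all genes were called higher and 11.5% lower. Cad, which starts that pathway in the cytosol, had a change of -0.51 in the Ctnnb1 tumors (adjusted p = 0.571) and of 0.29 in the other tumors (adjusted p = 0.609). Of 15 regulators, edgeR called none in the Ctnnb1 tumors (median -0.35) and DESeq2 called 3 lower. Of all genes, edgeR called 3.2% lower there and DESeq2 called 1075 of 15086 lower. In the other tumors 4 were lower and none higher (median -0.35), beside 11.5% and 11.3% of all genes. They included Klf15 at -1.49, a factor that acts on amino acid catabolism, and the liver factor Cebpa at -0.76 (adjusted p = 0.0314). Cebpa was at -0.91 in the Ctnnb1 tumors, where it was not called (adjusted p = 0.0800). Between the classes it differed by -0.16 (adjusted p = 0.763). Hnf4a, a regulator of hepatocyte genes, differed by -0.16 between tumors and livers (adjusted p = 0.657).

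Zonation markers were read in the same way, and Gls2, Glul, Rhbg, and Oat belong to these lists too. Of 12 periportal genes, 8 were lower in the Ctnnb1 tumors than in livers (median -3.79, against -0.03 over all genes tested) and none higher. Of all genes, 3.2% were called lower and 5.0% higher in that comparison. The histidine ammonia-lyase Hal changed by -7.88 and Cyp2f2 by -8.02. Of 12 pericentral genes, 7 were higher there (median 1.55), with Axin2, a target of β-catenin, at 2.71. In the other tumors 12 of 12 pericentral genes were lower (median -2.54), while periportal genes were divided, with 2 higher and 3 lower. There 11.3% of all genes were called higher and 11.5% lower. Directly between the classes, 6 periportal genes were lower and 11 pericentral genes higher in the Ctnnb1 tumors, where 5.72% of all genes were called lower and 6.76% higher. With each tumor compared within its own mouse, the pericentral calls were 4 in the Ctnnb1 tumors, 12 in the other tumors, and 8 between the classes.

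**Figure D5:**
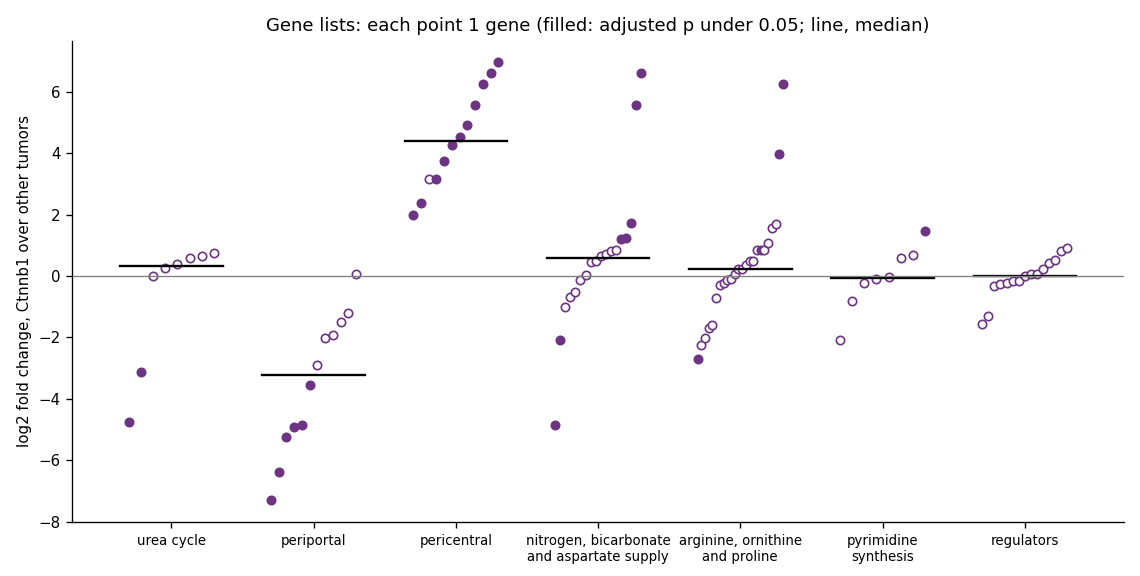
Log2 fold change of Ctnnb1 tumors against the other tumors for each gene of 7 lists, the 8 members included. Pericentral genes lie mostly above 0 (median 4.41) and periportal genes mostly below (median -3.22), with Arg1 and Cps1 the lowest members.

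Markers of other cell types were detected in all classes. Macrophage markers summed to 142 to 1641 CPM in livers, 134 to 656 in the Ctnnb1 tumors, and 173 to 1145 in the other tumors, so the classes overlapped. Cholangiocyte markers summed to 51.3 to 135 CPM in livers, 17.8 to 35.7 in the Ctnnb1 tumors, and 66.5 to 1076 in the other tumors. Endothelial markers were at 53.6 to 167, 59.0 to 99.6, and 142 to 265 CPM in the same order, stellate cell markers at 56.1 to 262, 30.5 to 74.0, and 147 to 371, and lymphocyte markers at 6.69 to 61.8, 22.7 to 51.0, and 15.8 to 85.0. The cholangiocyte genes were divided in the other tumors, where Spp1 alone was at 4.16 to 1037 CPM. Of these 6 genes, Sox9 (1.63) and Cldn7 (4.35) were called higher than in livers. Krt7 (-1.48), Krt19 (-1.68), and Epcam (-0.88) had negative changes and were not called. Of 7 endothelial genes tested, 3 were called higher in the other tumors than in livers, where 11.3% of all genes were called higher. The part of these cell types in the urea cycle results was not tested. Relative to the liver median, the hepatocyte sum was at 64.8% in T-HCC662 and 36.6% in T-HCC663. Arg1 was at 1.88% and 3.90% there, Cps1 at 6.25% and 5.83%, and Ass1 at 16.1% and 13.4%. Otc was at 26.1% and 24.2% and Asl at 43.7% and 23.4%, and all of these were lower than the marker sum. Nags was at 108% and 80.5% and Slc25a13 at 90.5% and 46.2%, both above that sum. Slc25a15 was at 52.3% and 74.1%, below the sum in T-HCC662 and above it in T-HCC663. Single markers spread widely around that sum, with all 11 at a negative change and 2 called lower, beside 3.2% of all genes. The smallest change was that of Rbp4 (-0.19). Serpina1c (-3.11, adjusted p = 0.00297) and Fga (-2.80, adjusted p = 0.0544) fell by more than Ass1 (-2.68) and Otc (-1.98). In the other tumors the hepatocyte sum was at 151% to 162% of the liver median, with Alb higher by 1.55 log2 units (adjusted p = 0.0288). Single markers were divided there, with 6 of 11 at a negative change and Apoa2 lower at -1.19 (adjusted p = 0.0262). In the same tumors Ass1 was at 6.30% to 16.4% and Otc at 17.0% to 39.3%.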

How the data were processed

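Per the labels and the study's methods, poly(A) RNA was sequenced with paired ends of 150 bases, reads below a Phred quality of 30 were removed, and reads were aligned with Subread to mm10 plus mCherry. The authors deposited raw counts per gene from featureCounts 1.6.4 for each library. The annotation release, the strand setting and the handling of multi-mapping reads are not given in the sources used here. The authors tested with DESeq2 and a term for the sequencing run, which is not given here, so the term was not repeated.

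From these counts, edgeR 4.0.16 in R 4.3.3 was used with filterByExpr, TMM factors, and the quasi-likelihood test (glmQLFit and glmQLFTest), with Benjamini-Hochberg adjustment over all genes tested and calls at an adjusted p under 0.05. Adjusted p-values are from this test unless DESeq2 (1.42.0) is named. All 12 libraries entered each of 4 models: tumors against livers (13822 genes), genotype by tissue, tumor class (livers, Ctnnb1, Egfr or Hras, neither), and class with genotype (15182 genes each). Classes came from the mutations the study gives for each tumor. Library totals were 14571716 to 26170661 counts. P-values of these models measure the spread between libraries. They leave out that each mouse gave 1 tumor and 1 liver. Same-numbered tumors and livers come from the same mouse, and the liver of the T-HCC662 mouse was assigned by elimination. The deviations of paired libraries from the group means correlated at a median of 0.258 (0.013 to 0.509), against -0.063 for different mice. Centring on group means pushes values for different mice below 0. It also gives both p21+/TertCi pairs the same value, so the contrast is no test of the pairing. T-HCC662 correlated at 0.130 with its assigned liver and at 0.183 with that of the TCi-HCA984 mouse. Because tumors and livers shared mice, mouse as a block was an alternative fit. The members and lists were chosen with earlier results of these data known. Named genes are the members, the genes of each list with the smallest p in each direction (up to 3), the 2 genes nearest to each member in profile, and Glul, Oat, Arg2, Cad, Odc1, Hnf4a, Cebpa, and Slc25a12. RPKM used GENCODE M21 exon lengths, which may not be the annotation the authors used. Ass1 and Gm5424 were aligned with minimap2 2.31-r1302. Marker, list, and motif counts are descriptions. On simulated counts with 200 genes changed by 2 log2 units, the comparison of Ctnnb1 tumors with livers recovered 110, that within p21+/TertCi mice 52, and that of the genotype difference 4 (15170 genes).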

Additional observations from a re-analysis of the deposited data

Results flagged for a closer look

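Arg1 and Cps1 differed between the tumor classes by the test of the difference itself, at -4.77 and -3.13 log2 units in Ctnnb1 tumors against the other tumors. Single libraries stood far from the rest of their group in 3 of 40 groups of 4 to 6 libraries examined, and chance gives about 1 in 20. Slc25a15 was at 565 CPM in the liver of the T-HCC941 mouse, above the other 5 livers. Ass1 was at 29.6 CPM in TCi-HCC981, below the other 5 tumors. Slc25a15 was at 211 CPM in TCi-HCA984, above the other 3 tumors without a Ctnnb1 mutation.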

How the results depend on the processing

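The alternatives gave 1280 member values, of which 1224 kept their side of the threshold, 37 lost the call, and 19 gained one. The sign changed in 70, none of them called in either fit. Members called within p21+/TertCi mice numbered 2 by DESeq2 against 0. In Ctnnb1 tumors against livers they were 2 to 5 with 1 library left out, and 0 with the mouse block and the T-HCC662 mouse left out, against 5. In Ctnnb1 against other tumors they were 1 to 2 with 1 library left out, 4 with library totals in place of TMM factors (Nags and Slc25a15 higher), and 0 with the mouse block and the T-HCC662 mouse left out, against 2. The replicate block (mouse) gave 3 members against 4 within p21+/Tert mice and 4 against 5 in Ctnnb1 tumors. With both libraries of the TCi-HCA984 mouse left out, chosen after seeing the data, 3 members were called within p21+/Tert mice. Library totals moved the median of all genes by 0.19 in tumors against livers, 0.28 within p21+/Tert mice, 0.33 in Ctnnb1 tumors, 0.13 in the other tumors, 0.21 between the classes, 0.25 in the genotype difference, and 0.14 between genotypes among the other tumors. With library totals, genes called higher and lower were 1328 and 270 in tumors (936 and 540 with TMM), 1083 and 185 within p21+/Tert mice (637 and 349), 1591 and 313 in Ctnnb1 tumors (759 and 486), 1863 and 1156 in the other tumors (1714 and 1745), and 1712 and 546 between the classes (1026 and 869). The total called was 2407 by DESeq2 against 1476 in tumors (863 at least with 1 library left out), 2109 against 986 within p21+/Tert mice (240 at least, and 649 with the block and the T-HCC662 mouse left out), and 2126 against 1245 in Ctnnb1 tumors (410 at least, 29 with that block). For the other tumors it was 3459 (1815 at least), and between the classes 3111 by DESeq2, 441 with the block, 77 with the block and the T-HCC662 mouse left out, and 839 with only the libraries compared, against 1895 (437 at least). The cause was not tested. With the length of the longest transcript, liver RPKM was 105.5 for Otc, 259 for Ass1, 257 for Asl, 1009 for Arg1, 90.2 for Slc25a15, and 54.7 for Slc25a13. The order of the means was the same, but Ass1 and Asl were then level.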
